A study of Homo sapiens with 36 samples.

Results

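The genes described here encode the enzymes that build purine and pyrimidine nucleotides from small precursors. There are 10 of them (PPAT, GART, PFAS, PAICS, ADSL, ATIC, IMPDH1, IMPDH2, GMPS and CAD), taken by symbol from the 37549 symbols of the deposited gene counts. All 10 passed the filter on low counts in each line, so every count of members is out of 10. Human leukaemic B-cell lines were treated with a purine analogue or a kinase inhibitor, and the RNA of 36 libraries was sequenced after removal of ribosomal RNA, with 3 libraries in each of 12 groups. MEC1 carries mutated p53, and JVM2 and EHEB carry wild-type p53. Each line received the vehicle dimethyl sulphoxide (DMSO), 50 µM fludarabine, 5 µM ibrutinib or 10 µM idelalisib. The exposure was 48 h for MEC1, 72 h for JVM2 and 96 h for EHEB. Line, p53 status and exposure time therefore cannot be told apart, and each line is a model of its own. Nothing in the labels says that the 3 libraries of a group came from separate cultures. The study's methods give 3 or more independent experiments for all results but the glucuronidation assays, without naming the sequencing libraries. The p values therefore measure the spread between libraries, which may be technical.

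Purine synthesis starts from phosphoribosyl pyrophosphate (PRPP). PPAT (phosphoribosyl pyrophosphate amidotransferase) catalyses the committed step, and GART, PFAS, PAICS, ADSL and ATIC carry the chain to inosine monophosphate (IMP). IMPDH1 and IMPDH2 oxidise IMP, which is the rate-limiting step towards guanine nucleotides, and GMPS completes guanosine monophosphate. CAD is the multifunctional enzyme of the early pyrimidine steps. Dividing lymphoid cells are known to depend on these routes, and inhibitors of IMPDH are used to suppress lymphocytes. Fludarabine is an adenosine analogue whose triphosphate blocks DNA synthesis. Ibrutinib inhibits the kinase BTK and idelalisib the delta form of phosphoinositide 3-kinase, both of which act downstream of the B-cell receptor.

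In the GENCODE annotation of GRCh38, PPAT (ENSG00000128059.8) runs on the minus strand of chromosome 4 from 56393362 to 56435615, and PAICS (ENSG00000128050.9) runs on the plus strand from 56435741 to 56464578. CAD and ATIC are both on chromosome 2, at 27217369 to 27243943 and at 215311956 to 215349773. GMPS and IMPDH2 are both on chromosome 3, at 155870650 to 155944020 and at 49024325 to 49029447. GART lies on chromosome 21 (33503931 to 33543491), PFAS on chromosome 17 (8247618 to 8270491), ADSL on chromosome 22 (40346461 to 40390463) and IMPDH1 on chromosome 7 (128392277 to 128409986). In the RefSeq promoter windows of GRCh38.p14, which hold 250 bases before a start site and 50 after it, the start sites of PPAT and PAICS are 137 bases apart and face away from each other. Their windows share 236 bases, at chr4:56435566-56435801. The stretch is shown because both genes fell with idelalisib in JVM2 and EHEB and with fludarabine in JVM2. PAICS was called lower in these 3 comparisons with DMSO only, whereas PPAT was called lower in 8. With fludarabine in MEC1, PPAT gave −0.79 on the log2 scale and PAICS −0.15, which was not called, and its libraries scattered. The stretch also holds a CACGTG box, the canonical E-box to which MYC is known to bind. MYC was called in no comparison with DMSO, but its DMSO libraries in MEC1 and JVM2 scattered too widely for a difference of ordinary size to be detected. Control by MYC or by a shared promoter was not tested. The box is in capitals, in the PAICS window of the plus strand at chr4:56435502-56435801.
PAICS: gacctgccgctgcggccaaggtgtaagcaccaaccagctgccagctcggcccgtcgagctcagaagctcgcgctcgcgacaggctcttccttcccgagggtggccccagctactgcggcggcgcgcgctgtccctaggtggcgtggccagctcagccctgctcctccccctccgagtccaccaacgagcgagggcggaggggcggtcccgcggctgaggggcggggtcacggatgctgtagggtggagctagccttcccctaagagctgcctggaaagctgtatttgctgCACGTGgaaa
The ATIC window, plus strand at chr2:215311809-215312108, held the box at 46 bases before the start and at position 30 after it, and is shown for comparison.
ATIC: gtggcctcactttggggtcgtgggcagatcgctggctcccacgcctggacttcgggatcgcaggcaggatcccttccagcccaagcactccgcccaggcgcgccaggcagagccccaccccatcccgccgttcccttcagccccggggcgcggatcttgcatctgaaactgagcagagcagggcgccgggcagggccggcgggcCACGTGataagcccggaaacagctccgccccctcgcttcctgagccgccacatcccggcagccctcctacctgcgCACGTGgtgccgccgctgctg
The motif reads the same on both strands. The 8 members with an entry have 12 windows, since a gene with several start sites has several, and 3 of these windows (of PPAT, PAICS and ATIC) held it. The box of PPAT is the one it shares with PAICS. Per window, 7.26% of the 35116 windows of all genes held it. A match describes the letters of the window only.

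Across the series, the libraries held 26590705 to 53538925 counts, with a median of 42114145. Normalised read counts are given as CPM, the count of a gene relative to its library's total, scaled by TMM (trimmed mean of M values) among the 12 libraries of a line. Without that scaling the drug effects of all genes shift by −0.10 to 0.25 on the log2 scale, most with fludarabine, at 0.25 for MEC1, 0.20 for JVM2 and 0.11 for EHEB, so that a small change of a member can differ between scalings. The labelled B-cell identity was borne out by its markers: the 7 B-cell markers summed to 672 to 2195 CPM in every library, whereas the markers of T, NK, myeloid and red cells each summed to at most 6.55 CPM. CD3E and CD14 were at 0 in some libraries. COL1A1 made up most of the epithelial and stromal sum, which reached 24.7 CPM. The DMSO and fludarabine libraries carry one run of library numbers and the kinase inhibitor libraries another, with no DMSO library in the second. An effect of that run and of the kinase inhibitors cannot be told apart.

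Levels with DMSO were compared first, per kilobase of annotated exon (RPKM), with all 36 libraries scaled together. In MEC1 the IMPDH2 and PAICS transcripts were the most abundant, at 56.9 ± 1.28 and 50.3 ± 4.45 RPKM (SD, n = 3), followed by ATIC at 36.3 ± 0.987, PPAT at 26.1 ± 1.497 and GMPS at 24.00 ± 1.06. CAD, IMPDH1 and GART lay between 13.1 and 17.1 RPKM, and PFAS at 6.32 ± 0.170 and ADSL at 5.07 ± 0.412 had the lowest RPKM. Mean and SD ranges overlapped for the neighbours PPAT and GMPS and for CAD and IMPDH1, so their order is not settled. The annotated exons of IMPDH2 cover all 5123 bases of the gene, since some transcripts keep introns, so its level per length is a low estimate. The annotated exons of ADSL cover 12109 bases, the most of any member, so its rank per length depends on that divisor. By CPM, which ignores length, ADSL in MEC1 (61.3) lay above IMPDH1 (56.2) and PFAS (40.9), with all libraries scaled together. In JVM2 and EHEB ATIC came first, at 39.7 ± 2.30 and 53.2 ± 2.55 RPKM, and ADSL came last, at 2.80 ± 0.0446 and 4.05 ± 0.316. The neighbours that overlapped were PPAT and GART in JVM2, and IMPDH2 and PAICS, GART and PPAT, and PFAS and IMPDH1 in EHEB.

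PPAT, PAICS, IMPDH1 and IMPDH2 were all higher in MEC1 than in the other lines. PPAT reached 26.1 ± 1.497 RPKM in MEC1 against 9.73 ± 0.576 in JVM2 and 12.2 ± 0.917 in EHEB. On the log2 scale JVM2 lay at −1.42 (SE 0.0746, adjusted p = 6.36e-16) relative to MEC1 in edgeR's quasi-likelihood test. CAD was low in JVM2 at 6.77 ± 0.278 RPKM, against 17.1 ± 0.329 in MEC1 and 14.8 ± 0.280 in EHEB, a log2 difference of 1.13 (SE 0.0716, adjusted p = 8.70e-14) between EHEB and JVM2. GMPS was lowest in EHEB, at 15.99 ± 0.811 RPKM, and its levels in JVM2 and MEC1 were not called different (adjusted p = 0.100 in edgeR). Members differing between lines numbered 9 of 10 for EHEB and MEC1, 8 for JVM2 and MEC1 and 8 for EHEB and JVM2, where 60.6%, 57.1% and 53.2% of all tested genes did. GART was the member that did not differ between EHEB and MEC1. The log2 difference of CAD between EHEB and MEC1, −0.21 (SE 0.0706, adjusted p = 0.0103), was −0.14 to −0.13 and not called in most fits that left out a library. That of PFAS, 0.34 (SE 0.101, adjusted p = 0.00443), was 0.22 (adjusted p = 0.0724) without EHEB_133, and GMPS in JVM2 against MEC1 was called in most of these fits (0.14 to 0.16).

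**Figure D1:**
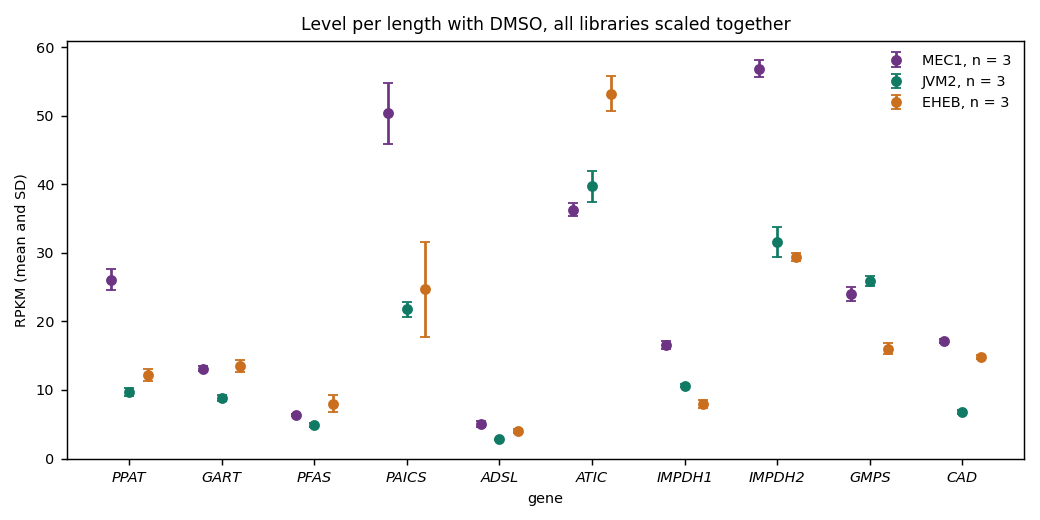
Level of each gene with DMSO in RPKM (normalised reads per kilobase of annotated exon, linear axis), as the mean (points) and SD (bars) of 3 libraries per line. IMPDH2, PAICS and PPAT sit highest in MEC1, ATIC sits highest in EHEB, and CAD sits lowest in JVM2.

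Drug effects were then read against DMSO in each line. Over the 9 comparisons, 65 of the 90 member values were called at an adjusted p below 0.05, 47 lower and 18 higher, and 48 of the 65 (37 lower, 11 higher) were kept in each alternative fit and with each library left out. In MEC1, fludarabine lowered 7 members and raised none, where 22.7% and 21.2% of all tested genes were called. Ibrutinib lowered 5 and raised 3 in MEC1, against 23.9% and 23.7% of all genes, and idelalisib lowered 7 and raised 2, against 27.4% and 27.6%. In JVM2, fludarabine lowered 6 and raised 1 (23.3% and 23.9% of all genes), ibrutinib lowered 3 and raised 5 (15.0% and 14.5%), and idelalisib lowered 6 and raised 3 (22.6% and 21.6%). In EHEB, fludarabine lowered 3 and raised 2 (19.2% and 18.4%), ibrutinib lowered 2 and raised 2 (11.2% and 8.50%), and idelalisib lowered 8 and raised none (18.2% and 15.1%). The drugs of a line share its DMSO libraries, so these counts are not independent.

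Median log2 changes over the members were −0.44, −0.19 and −0.57 with fludarabine, ibrutinib and idelalisib in MEC1, where the medians of all tested genes were 0.056, 0.060 and 0.081. In JVM2 the same medians were −0.33, 0.092 and −0.16, against 0.056, −0.0014 and 0.026, and in EHEB they were −0.10, −0.086 and −0.42, against 0.020, 0.0095 and 0.013. Scaling by library size alone changed the split of calls with fludarabine to 5 lower and 1 higher in MEC1, 5 lower and 3 higher in JVM2 and 2 lower and 4 higher in EHEB, and with ibrutinib in EHEB to none lower and 2 higher. The 8 lower calls with idelalisib in EHEB stood in each alternative and with each library left out.

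**Figure D2:**
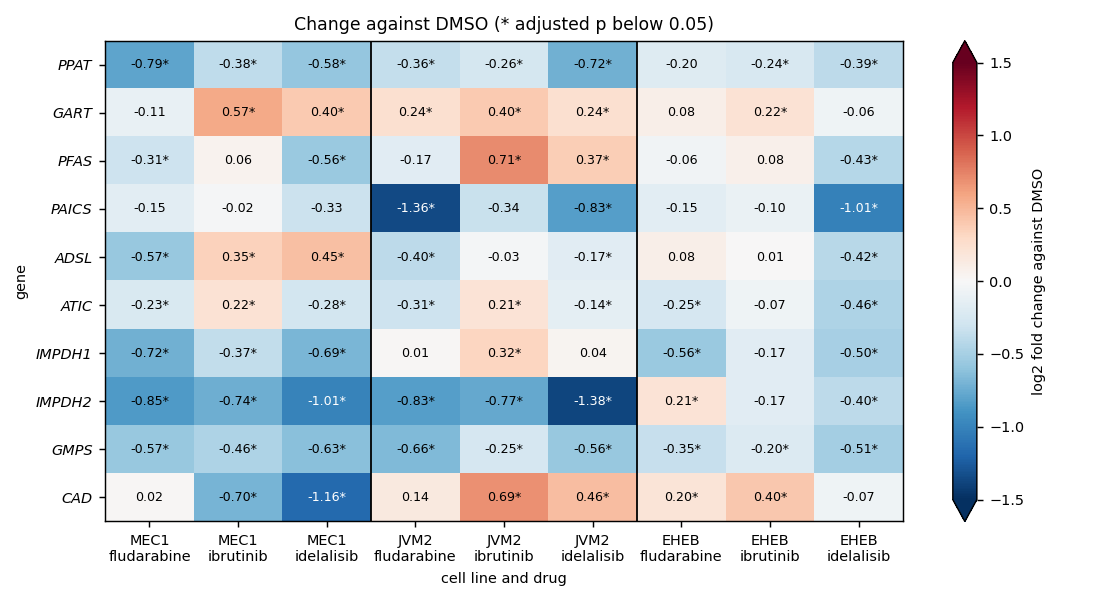
Log2 fold change against DMSO of each gene (rows) with each drug in each line (columns, 3 libraries per group), blue for lower and red for higher, with an asterisk where the adjusted p was below 0.05. GMPS is lower in all 9 columns, IMPDH2 reaches −1.38 with idelalisib in JVM2, and CAD runs from −1.16 with idelalisib in MEC1 to 0.69 with ibrutinib in JVM2.

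PPAT, the committed enzyme of the purine route, was called lower in 8 of the 9 comparisons. In MEC1 its CPM were 141, 156 and 143.5 with DMSO, 87.5, 82.5 and 84.7 with fludarabine, 116, 108 and 115 with ibrutinib and 97.1, 97.9 and 99.1 with idelalisib. Every treated library lay below every DMSO library, and the fludarabine libraries were lowest, at a log2 change of −0.79 (SE 0.0560, adjusted p = 1.13e-06) in edgeR. In JVM2 the CPM were 50.04, 54.7 and 49.2 with DMSO, 38.1, 42.98 and 39.1 with fludarabine, 43.6, 46.8 and 37.9 with ibrutinib and 32.1, 30.2 and 31.2 with idelalisib. Here the idelalisib libraries were lowest, at −0.72 (SE 0.0826, adjusted p = 4.28e-05), and the groups again did not overlap with DMSO. In EHEB the range was narrower, from 45.9 CPM with idelalisib to 68.4 with DMSO, and the log2 changes were −0.20 (fludarabine), −0.24 (ibrutinib) and −0.39 (idelalisib). The fludarabine value in EHEB was not called (adjusted p = 0.0625, edgeR), but was in the joint fit (−0.21) and without EHEB_135 or EHEB_143 (−0.27 to −0.25). Calls with ibrutinib were lost in JVM2 without JVM2_85, JVM2_86, JVM2_232 or JVM2_234 (−0.28 to −0.16) and in EHEB without EHEB_133, EHEB_134, EHEB_280, EHEB_281 or EHEB_282 (−0.25 to −0.20), and the fludarabine call in JVM2 was lost under library size scaling (−0.16).

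PAICS, which starts beside PPAT on the opposite strand and whose product carries out the carboxylation and the following ligation, fell with fludarabine and idelalisib in JVM2 and with idelalisib in EHEB. Its CPM in JVM2 were 149.8, 164 and 162 with DMSO, 64.5, 62.9 and 58.2 with fludarabine, 118, 159 and 98.6 with ibrutinib and 89.9, 90.6 and 86.8 with idelalisib. All fludarabine libraries lay below all DMSO libraries, a log2 change of −1.36 (SE 0.137, adjusted p = 1.20e-05) in edgeR, and idelalisib gave −0.83 (SE 0.135, adjusted p = 5.05e-04). With ibrutinib the value was −0.34 (SE 0.134, adjusted p = 0.0843) and the groups overlapped through JVM2_233, without which it was −0.53 (adjusted p = 0.00141). DESeq2 (−0.34) and limma-voom (−0.38) called it with all libraries. In EHEB the CPM were 201, 221 and 125 with DMSO, 160.0, 163 and 169 with fludarabine, 170.0, 166 and 174 with ibrutinib and 66.9, 104 and 99.9 with idelalisib. With idelalisib the gene dropped by 1.01 (SE 0.198, adjusted p = 0.00240) on the log2 scale, and the other drugs did not pass the test. In MEC1 single libraries scattered widely, at 374, 369 and 433 with DMSO, 201, 409 and 446 with fludarabine, 301, 304 and 556 with ibrutinib and 413, 254 and 271 with idelalisib. MEC1_46, MEC1_186 and MEC1_190 each stood apart from their group, as did EHEB_135 among the DMSO libraries of EHEB, and no MEC1 value passed the test (SE 0.312 on the log2 scale). The reason for this scatter was not tested. PPAT, measured in the same libraries, was 87.5, 82.5 and 84.7 CPM with fludarabine and did not show it.

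GART, which carries several early steps of the ring assembly, was called higher in 6 comparisons and lower in none. The MEC1 CPM were 106, 101 and 107 with DMSO, 99.1, 93.1 and 98.8 with fludarabine, 163, 153 and 151 with ibrutinib and 142.3, 137 and 135.1 with idelalisib. The kinase inhibitor libraries lay above all DMSO libraries, with log2 changes of 0.57 (SE 0.0534, adjusted p = 7.14e-06) for ibrutinib and 0.40 (SE 0.0533, adjusted p = 7.23e-05) for idelalisib in edgeR, and fludarabine gave −0.11 without a call. In JVM2 all drugs were called higher, at 0.24 (fludarabine), 0.40 (ibrutinib) and 0.24 (idelalisib), but the fludarabine call was lost without JVM2_86, JVM2_95 or JVM2_96 (0.20 to 0.23) and the idelalisib call without JVM2_86, JVM2_87, JVM2_239 or JVM2_240 (0.20 to 0.24). In EHEB ibrutinib gave 0.22 (SE 0.0557, adjusted p = 0.0172), which was lost without EHEB_134, EHEB_135 or EHEB_280 (0.19 to 0.22). GART had no lower call and PPAT, its predecessor in the route, no higher call, so where both were called they could only be opposite. Both calls were kept in every fit only with the kinase inhibitors in MEC1. In the comparisons without a GART call, both values were negative with fludarabine in MEC1 (−0.11 and −0.79) and with idelalisib in EHEB (−0.060 and −0.39). With fludarabine in EHEB their signs differed (0.082 and −0.20).

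PFAS, the amidotransferase that follows GART's transformylase step, rose with the kinase inhibitors in JVM2. Its JVM2 CPM were 32.2, 29.2 and 30.6 with DMSO, 27.9, 26.9 and 27.2 with fludarabine, 52.6, 44.04 and 53.7 with ibrutinib and 37.9, 41.3 and 39.5 with idelalisib. Ibrutinib raised it by 0.71 (SE 0.0774, adjusted p = 8.03e-05) and idelalisib by 0.37 (SE 0.0772, adjusted p = 0.00269) on the log2 scale in edgeR, with no overlap with DMSO. Idelalisib lowered it in the other lines, at −0.56 (SE 0.107, adjusted p = 0.00101) in MEC1 and −0.43 (SE 0.0910, adjusted p = 0.00405) in EHEB. In MEC1 the fludarabine value of −0.31 (SE 0.107, adjusted p = 0.0342) lost its call without MEC1_37, MEC1_38, MEC1_39, MEC1_47 or MEC1_48 (−0.33 to −0.29) and was −0.061 under library size scaling.

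ADSL, the lyase that acts both in this chain and on the way to AMP, split by drug in MEC1. The CPM were 63.4, 58.3 and 68.9 with DMSO, 47.5, 36.9 and 43.9 with fludarabine, 74.7, 81.9 and 85.8 with ibrutinib and 88.9, 82.2 and 89.7 with idelalisib. Fludarabine libraries lay below and kinase inhibitor libraries above every DMSO library, at −0.57 (SE 0.0987, adjusted p = 6.95e-04), 0.35 (SE 0.0981, adjusted p = 0.0128) and 0.45 (SE 0.0982, adjusted p = 0.00225) for fludarabine, ibrutinib and idelalisib in edgeR. The ibrutinib call was lost without MEC1_38 (0.29, adjusted p = 0.0547). In JVM2 fludarabine gave −0.40 (SE 0.0613, adjusted p = 2.99e-04), and the call with idelalisib, −0.17, was lost whichever of its 6 libraries was left out (−0.19 to −0.13). In EHEB only idelalisib passed the test, at −0.42 (SE 0.0635, adjusted p = 4.54e-04). Another annotated gene, ENSG00000284431, shares 1344 exonic bases with ADSL on the same strand, so reads of these genes cannot be told apart there.

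ATIC, which closes the purine ring, moved by small amounts in opposite directions. It was called lower in 6 comparisons and higher in 2, both with ibrutinib. In JVM2 its CPM were 141.9, 140.2 and 155 with DMSO, 119, 119.6 and 114 with fludarabine, 169.8, 164 and 172 with ibrutinib and 130.1, 135.04 and 131 with idelalisib. Fludarabine gave −0.31 (SE 0.0477, adjusted p = 2.81e-04) and ibrutinib 0.21 (SE 0.0477, adjusted p = 0.00724), and neither group overlapped with DMSO. The largest change was −0.46 (SE 0.0697, adjusted p = 4.27e-04) with idelalisib in EHEB. Several of the other calls were fragile. In MEC1 the fludarabine value of −0.23 turned to 0.018 under library size scaling and lost its call without MEC1_39, MEC1_47 or MEC1_48 (−0.23 to −0.19), and the ibrutinib value of 0.22 lost it without MEC1_37, MEC1_38, MEC1_184 or MEC1_186 (0.15 to 0.21). The idelalisib value of −0.14 in JVM2 was lost without JVM2_87, JVM2_238, JVM2_239 or JVM2_240 (−0.15 to −0.098), and the fludarabine value of −0.25 in EHEB without EHEB_133 (−0.22). Under library size scaling these were −0.040 and −0.14, neither called, and the JVM2 call was also lost in the fit of 6 libraries, in the joint fit, with no filter and with the stricter filter (−0.15 to −0.10). The idelalisib value of −0.28 in MEC1 lost its call under the stricter filter (−0.15).

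**Figure D3:**
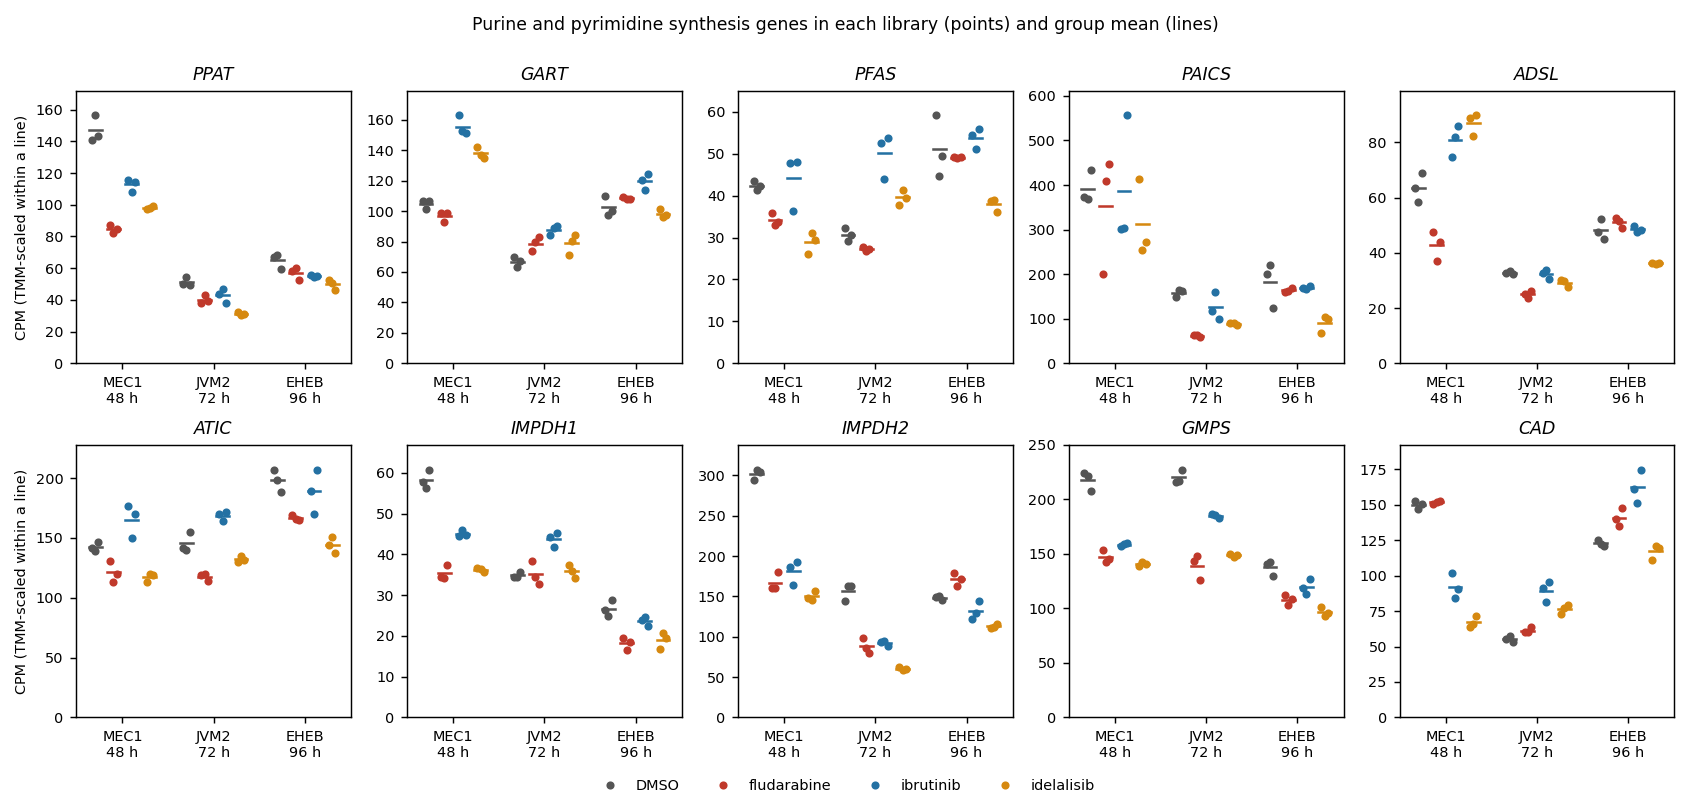
CPM of each gene (TMM-scaled within a line, linear axes from 0) in each library (points) with group means (lines), for DMSO and the 3 drugs in MEC1, JVM2 and EHEB. GMPS points lie below DMSO with every drug in every line, GART points rise with ibrutinib in every line, and PAICS points of MEC1 scatter from 201 to 556 CPM.

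IMPDH2, the inducible form of the enzyme that commits IMP to guanine nucleotides, fell with every drug in MEC1 and JVM2. In MEC1 the CPM were 294, 307 and 304 with DMSO, 161, 160.2 and 181 with fludarabine, 187, 164 and 192.4 with ibrutinib and 148, 145 and 157 with idelalisib. No treated library came near the DMSO range of 294 to 307 CPM, and the log2 changes were −0.85 (SE 0.0717, adjusted p = 3.74e-06), −0.74 (SE 0.0715, adjusted p = 9.19e-06) and −1.01 (SE 0.0719, adjusted p = 5.85e-07) for fludarabine, ibrutinib and idelalisib in edgeR. JVM2 gave CPM of 145, 163 and 163 with DMSO, 98.99, 86.3 and 79.4 with fludarabine, 93.5, 94.9 and 88.04 with ibrutinib and 62.4, 59.02 and 59.5 with idelalisib. Again no drug group overlapped with DMSO, and idelalisib lowered the gene to 0.384 of the DMSO level, at −1.38 (SE 0.0805, adjusted p = 3.01e-07). EHEB differed, with CPM of 149, 151 and 145 with DMSO, 179, 163 and 172 with fludarabine, 122, 129 and 143.8 with ibrutinib and 111, 112 and 116 with idelalisib. Fludarabine libraries lay above DMSO and idelalisib libraries below it, at 0.21 (SE 0.0625, adjusted p = 0.0227) and −0.40 (SE 0.0626, adjusted p = 5.87e-04). The rise with fludarabine was called by edgeR but was lost without EHEB_133, EHEB_134, EHEB_135, EHEB_142 or EHEB_144 (0.17 to 0.21), in the joint fit (0.20) and with no filter (0.17). The ibrutinib value, −0.17 (SE 0.0625, adjusted p = 0.0786), was called by DESeq2 (−0.18) and without EHEB_282 (−0.24). The gene ENSG00000290315 shares 1680 exonic bases with IMPDH2 on the same strand, and reads there cannot be assigned to either.

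IMPDH1, the form often described as constitutive, was the less abundant and followed IMPDH2 in part. Its CPM in MEC1 were 57.7, 56.2 and 60.8 with DMSO, 34.5, 34.3 and 37.4 with fludarabine, 44.6, 46.01 and 44.7 with ibrutinib and 36.6, 36.3 and 35.6 with idelalisib. All treated libraries were lower, at −0.72 (fludarabine), −0.37 (ibrutinib) and −0.69 (idelalisib) on the log2 scale. In JVM2, where IMPDH2 was lowered by every drug, the CPM of IMPDH1 were 34.6, 34.5 and 35.7 with DMSO, 38.3, 34.5 and 32.8 with fludarabine, 44.2, 41.7 and 45.2 with ibrutinib and 37.4, 35.9 and 34.3 with idelalisib. Ibrutinib raised it there by 0.32 (SE 0.0659, adjusted p = 0.00388) in edgeR, and the values with fludarabine and idelalisib were 0.012 and 0.038, neither called. Under library size scaling the fludarabine value was 0.21 and called. In EHEB, where IMPDH2 did not fall with fludarabine, IMPDH1 changed by −0.56 (SE 0.0992, adjusted p = 0.00102) with that drug and by −0.50 (SE 0.0990, adjusted p = 0.00267) with idelalisib. Annotated IMPDH1 pseudogenes held at most 2.61% each of the IMPDH1 counts.

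GMPS, which aminates xanthosine monophosphate to GMP, was the member called lower in all 9 comparisons. In MEC1 its CPM were 224, 222 and 207 with DMSO, 153, 142.9 and 145 with fludarabine, 157, 159 and 160.1 with ibrutinib and 139, 142.5 and 140.4 with idelalisib. In JVM2 they were 216, 217 and 227 with DMSO, 143.8, 148 and 126 with fludarabine, 186.4, 185.6 and 183 with ibrutinib and 149.9, 148 and 149 with idelalisib. In EHEB they were 141, 142.7 and 129.9 with DMSO, 112, 103 and 109 with fludarabine, 119, 113 and 127 with ibrutinib and 101, 93.5 and 95.4 with idelalisib. All treated libraries lay below all DMSO libraries of their line. The log2 changes ran from −0.66 (SE 0.0565, adjusted p = 3.31e-06) with fludarabine in JVM2 to −0.20 (SE 0.0618, adjusted p = 0.0423) with ibrutinib in EHEB in edgeR, and ibrutinib gave the smallest fall in each line. The EHEB ibrutinib call was lost without EHEB_133, EHEB_134, EHEB_280 or EHEB_281 (−0.20 to −0.15) and under library size scaling (−0.10).

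CAD, the entry enzyme of pyrimidine synthesis, moved in opposite directions in MEC1 and in JVM2 with the kinase inhibitors. The MEC1 CPM were 152, 147 and 151 with DMSO, 150.5, 152 and 152 with fludarabine, 102, 84.5 and 90.3 with ibrutinib and 63.6, 66.2 and 71.4 with idelalisib. Fludarabine libraries overlapped with DMSO (0.017), whereas ibrutinib gave −0.70 (SE 0.0704, adjusted p = 1.17e-05) and idelalisib −1.16 (SE 0.0711, adjusted p = 2.07e-07) in edgeR. In JVM2, where the level with DMSO was lowest, CPM were 55.6, 57.6 and 53.1 with DMSO, 59.98, 59.96 and 63.6 with fludarabine, 91.4, 81.1 and 95.2 with ibrutinib and 72.8, 77.2 and 79.3 with idelalisib. Both inhibitor groups lay above every DMSO library, at 0.69 (SE 0.0662, adjusted p = 3.78e-05) for ibrutinib and 0.46 (SE 0.0660, adjusted p = 2.01e-04) for idelalisib. EHEB gave CPM of 125, 122 and 121 with DMSO, 139.9, 135.1 and 148 with fludarabine, 161, 151 and 175 with ibrutinib and 111, 121 and 119.5 with idelalisib. Ibrutinib raised CAD there by 0.40 (SE 0.0610, adjusted p = 9.59e-04), and idelalisib did not pass the test (−0.067). The value with fludarabine in EHEB was 0.20 (SE 0.0610, adjusted p = 0.0243) and lost its call without EHEB_133, EHEB_134, EHEB_135, EHEB_142 or EHEB_144 (0.15 to 0.21). Under library size scaling fludarabine was also called higher in MEC1 (0.27) and JVM2 (0.34).

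The purine analogue was next compared with the kinase inhibitors, as fludarabine against the mean of ibrutinib and idelalisib, a contrast without DMSO libraries. All fludarabine libraries carry the run of library numbers of DMSO, and all inhibitor libraries the other. In this contrast the drug and the run therefore cannot be told apart. A call on this mean need not hold for each inhibitor. In MEC1, 5 members were lower and 1 higher with fludarabine (28.1% and 30.3% of all genes). ADSL gave −0.97 (SE 0.0889, adjusted p = 2.39e-06) and GART −0.60 (SE 0.0473, adjusted p = 7.69e-07) in edgeR, and CAD was higher at 0.95 (SE 0.0591, adjusted p = 1.09e-07). For these 3 genes no fludarabine library overlapped with a kinase inhibitor library. PPAT, IMPDH1 and ATIC were lower by smaller amounts (−0.31, −0.19 and −0.20), which under library size scaling were −0.048, 0.071 and 0.058 and not called, and GMPS, at −0.022, became 0.24 and called. ATIC also lost its call without MEC1_47, MEC1_48, MEC1_184 or MEC1_192 (−0.20 to −0.15). Its fludarabine libraries (mean 121 CPM) lay below ibrutinib (165) and overlapped with idelalisib (118). In JVM2, 7 members were lower and 1 higher (22.7% and 22.9% of all genes). PAICS gave −0.77 (SE 0.121, adjusted p = 3.10e-04), PFAS −0.71 (SE 0.0688, adjusted p = 7.97e-06) and CAD −0.43 (SE 0.0580, adjusted p = 9.94e-05), the last opposite in sign to MEC1. IMPDH2 was higher at 0.24 (SE 0.0680, adjusted p = 0.0126), and 0.13 (adjusted p = 0.110) without JVM2_94. Its mean was 88.2 CPM with fludarabine, 92.1 with ibrutinib and 60.3 with idelalisib, so fludarabine lay above idelalisib only. The IMPDH1 value of −0.17 lost its call without JVM2_95, JVM2_96 or JVM2_232 (−0.17 to −0.14). In EHEB none was lower and 2 were higher (19.8% and 22.4% of all genes), IMPDH2 at 0.49 (SE 0.0532, adjusted p = 1.97e-05) and ADSL at 0.29 (SE 0.0544, adjusted p = 0.00127). For ADSL the fludarabine libraries (mean 51.1 CPM) overlapped with ibrutinib (48.6) and lay above idelalisib (36.2). By edgeR, the member below an unadjusted p of 0.05 in the lower direction was IMPDH1, at −0.22 (SE 0.0868, adjusted p = 0.0601), and DESeq2 also called none lower. DESeq2 called a further member higher, PAICS, at 0.41 (adjusted p = 0.0401), where edgeR gave 0.40 (SE 0.168, adjusted p = 0.0763). IMPDH1 was called in the joint fit (−0.24) and without EHEB_142, EHEB_282 or EHEB_286 (−0.29 to −0.26).

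**Figure D4:**
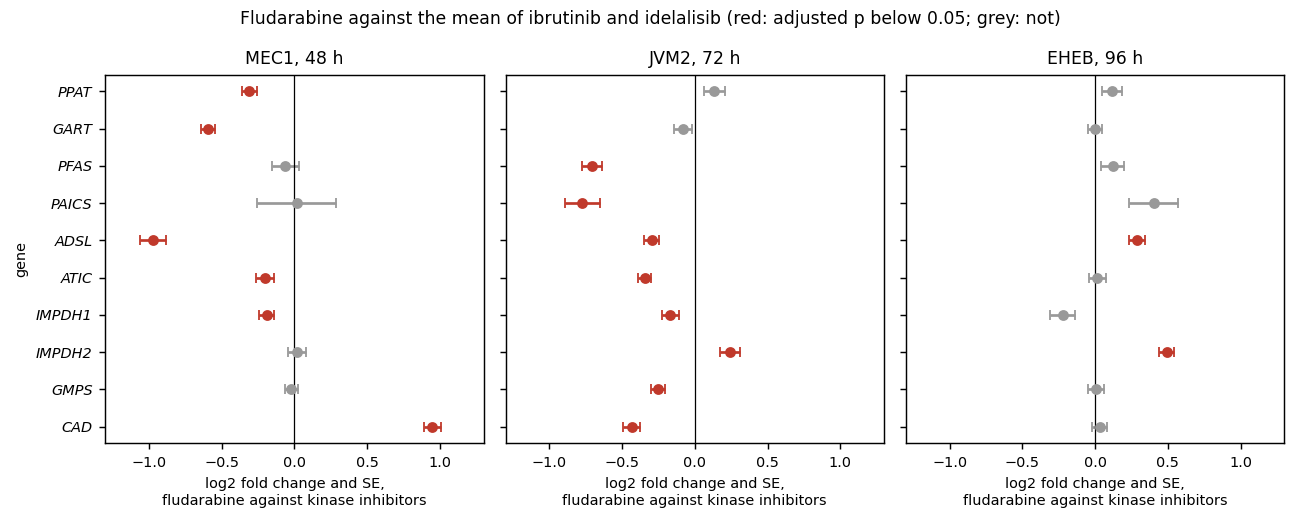
Log2 fold change (points) and SE (bars) of fludarabine against the mean of ibrutinib and idelalisib for each gene in each line, red where the adjusted p was below 0.05. CAD lies at 0.95 in MEC1 and −0.43 in JVM2, ADSL at −0.97 in MEC1 and 0.29 in EHEB, and IMPDH2 is highest in EHEB at 0.49.

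Whether a drug effect differed among the lines was tested in a fit of all 36 libraries (interaction F-test with 2 degrees of freedom, edgeR). The effect differed for 7 of 10 members with fludarabine, 7 with ibrutinib and 8 with idelalisib, where 37.1%, 32.4% and 42.7% of all tested genes did. CAD had the smallest adjusted p values with the kinase inhibitors, 1.31e-11 for ibrutinib and 3.03e-13 for idelalisib, and IMPDH2 had the smallest with fludarabine (3.72e-09). No difference among lines was called for PFAS, ATIC and CAD with fludarabine, for PPAT, PAICS and ATIC with ibrutinib, and for PAICS and GMPS with idelalisib. ATIC with ibrutinib, at an adjusted p of 0.0509, was called in DESeq2 and in most fits that left out a library (down to 0.00360), and the call of PPAT with idelalisib (0.0218) was lost in most of these fits (up to 0.190). GMPS with idelalisib, at 0.137, was called under library size scaling (5.76e-04), as was ATIC with ibrutinib (0.0276).

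Genes that feed or follow these steps were read from lists, with the counts of called genes in place of a test of the list. In a comparison with DMSO, 8.50% to 27.6% of all tested genes were called in a direction. A count near that share is not particular to a list. PRPP is supplied by PRPS1 and PRPS2 and their associated proteins PRPSAP1 and PRPSAP2. Neither synthetase passed the test in any comparison, with log2 changes from −0.24 to 0.12 for PRPS1 and from −0.53 to 0.033 for PRPS2 in edgeR. At an unadjusted p below 0.05, PRPS1 was lower in MEC1 with fludarabine, and PRPS2 in JVM2 with fludarabine and in EHEB with idelalisib. PRPSAP2 was lower in 5 comparisons, among them a drop by 0.58 (SE 0.0681, adjusted p = 3.89e-05) with fludarabine in JVM2, and PRPSAP1 was lower in 2, at −0.52 and −0.51 with the kinase inhibitors in MEC1. On the AMP branch, ADSS (adenylosuccinate synthase) was lower in 3 comparisons and higher in 1 (−0.55 to 0.41), and its isoform gene ADSSL1 ranged from −3.21 with idelalisib in MEC1 to 1.64 with fludarabine in EHEB, with 5 lower and 1 higher calls.

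Past CAD in the pyrimidine route, UMPS, which makes UMP, was higher in 6 of 9 comparisons, at 0.47 (fludarabine), 0.55 (ibrutinib) and 0.40 (idelalisib) in MEC1, where CAD fell with the kinase inhibitors. CTPS1, the CTP synthase known to serve lymphocyte proliferation, was higher in 5 and lower in 1 (−0.56 with idelalisib in EHEB to 0.62 with ibrutinib in JVM2). CTPS2 was lower with fludarabine in every line (−0.43, −0.78 and −0.79) and with idelalisib in JVM2 (−0.25), and higher with idelalisib in EHEB (0.28). DHODH was lower in 2, at −0.83 with fludarabine in MEC1 and −0.65 with ibrutinib in EHEB.

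Of the 9 folate enzymes that handle one-carbon units, which GART and ATIC use, 2 to 7 were lower and 0 to 3 higher in a comparison. Of all tested genes, 11.2% to 27.4% were lower and 8.50% to 27.6% higher. MTHFD1L, the mitochondrial formyltetrahydrofolate synthase, was lower in all 9, from −1.63 (SE 0.0929, adjusted p = 3.47e-07) with idelalisib in EHEB to −0.28 (SE 0.0737, adjusted p = 0.0151) with ibrutinib in JVM2 (edgeR). MTHFD2, its mitochondrial dehydrogenase partner, was lower in 5 and higher in 2 (−1.14 to 0.50). TYMS, the thymidylate synthase, was lower in 5 and higher in 2, at 0.31 and 0.93 with fludarabine in JVM2 and EHEB. With idelalisib in MEC1, 7 of the 9 genes of this list were lower and 1 higher (median −0.96), where 27.4% and 27.6% of all genes were. With ibrutinib in JVM2, 2 were lower and 2 higher (median −0.10), where 15.0% and 14.5% of all genes were. Among the serine synthesis genes, PHGDH was −2.30 with ibrutinib and −2.47 with idelalisib in MEC1, and 0.45 and 0.52 in JVM2, all called. PSPH was higher in 6 comparisons and lower in none, among them both kinase inhibitors in MEC1 (0.48 and 0.46) and JVM2 (0.68 and 0.72), and PSAT1 was tested in MEC1 and EHEB and lower in 4 comparisons and higher in 1.

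**Figure D5:**
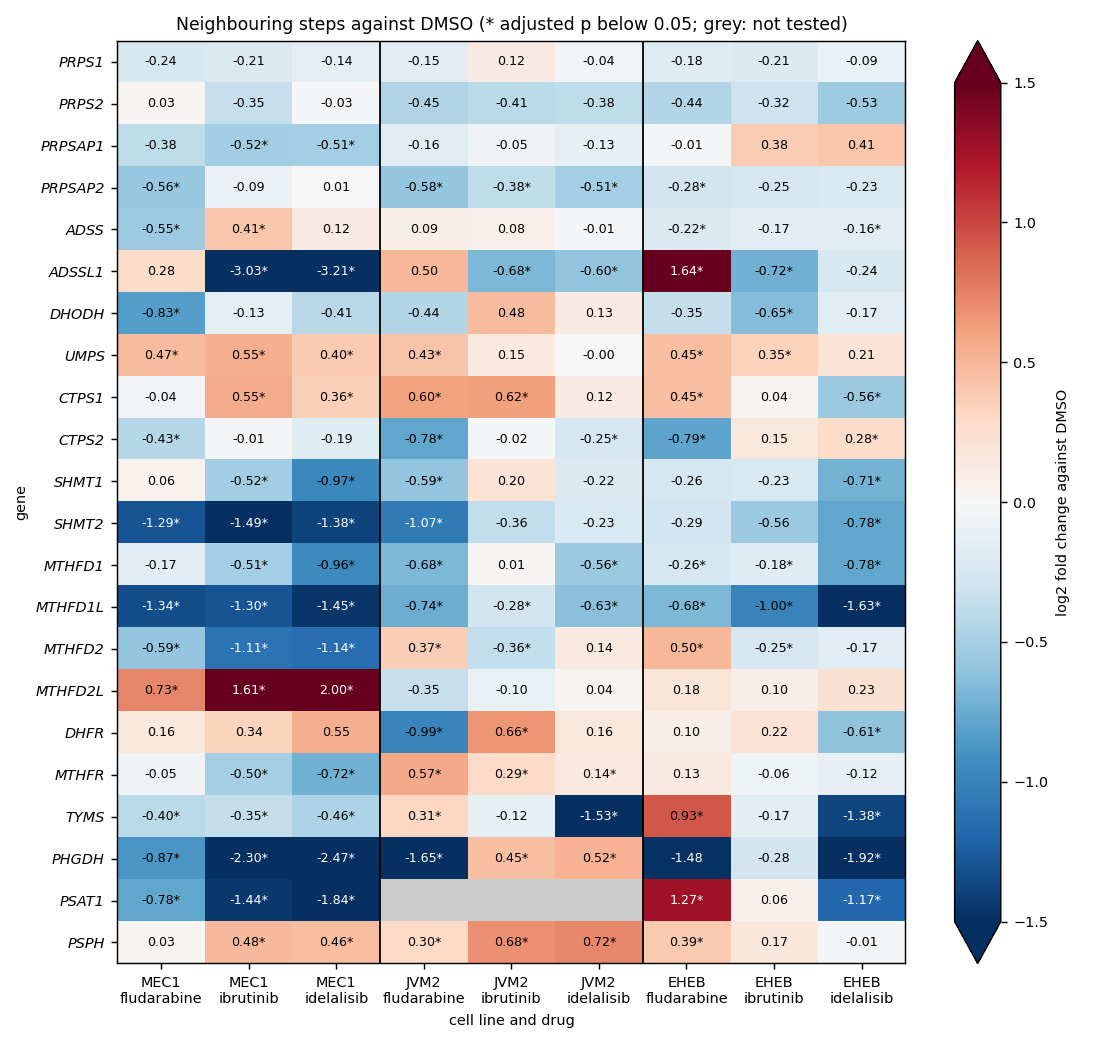
Log2 fold change against DMSO of genes for PRPP supply, the AMP branch, later pyrimidine steps, folate enzymes and serine synthesis (rows) with each drug in each line (columns), with an asterisk where the adjusted p was below 0.05 and grey where a gene was not tested. MTHFD1L is lower in all 9 columns, UMPS is higher in 6, and PHGDH changes sign between MEC1 and JVM2 with the kinase inhibitors.

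In purine salvage, HPRT1, which recycles hypoxanthine and guanine, was lower in 6 and higher in 2, the latter with the kinase inhibitors in MEC1 (0.22 and 0.29). ADK was lower with fludarabine in every line (−0.61, −0.56 and −0.81) and higher with the kinase inhibitors in MEC1. PNP was higher with fludarabine in JVM2 (0.92) and EHEB (1.02) and lower with idelalisib in both (−0.37 and −0.98). Among the genes of purine interconversion and breakdown, AMPD2 was lower in 5 comparisons, AMPD3 higher in 5 and lower in 1, and ITPA higher in 5.

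MYC and ATF4 are transcription factors known to act on genes of these routes. MYC was called in none of the 9 comparisons by edgeR, with log2 changes from −0.70 to 0.31. At an unadjusted p below 0.05 MYC was lower with idelalisib in EHEB, at −0.58 (SE 0.216, adjusted p = 0.0625). Its CPM varied widely in MEC1 and JVM2, at 211, 11.2 and 169.5 in the DMSO libraries of MEC1 and 86.01, 106 and 9.67 in those of JVM2. In these lines a difference of ordinary size was therefore not detectable. The DMSO libraries of EHEB were closer, at 26.1 to 39.2 CPM with all libraries scaled together. ATF4 was lower with every drug in MEC1, at −1.13 (fludarabine), −0.76 (ibrutinib) and −0.80 (idelalisib). It was lower in JVM2 too, at −1.06 (fludarabine), −0.58 (ibrutinib) and −0.29 (idelalisib), and higher in EHEB, at 0.67 (fludarabine), 0.54 (ibrutinib) and 0.75 (idelalisib). Over the 12 groups, with each gene centred within its line, ATIC and GMPS followed the mean of the other 9 members most closely (Pearson's r of 0.86 and 0.85), and GART (0.017) and CAD (0.17) least. MYC gave 0.29 and ATF4 0.37 against the mean of the members. These are descriptions over 12 group means that share lines and library runs.

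Among 7997 other genes with at least 10 CPM in the DMSO libraries of each line, those most like the mean of the members over the 12 groups were FH (r of 0.96), QDPR (0.95), NUDT19 (0.95), NAT10 (0.94) and NAA15 (0.93). FH encodes the fumarate hydratase of the citric acid cycle and NAT10 an RNA acetyltransferase. FH was lower in 6 of 9 comparisons, for example at −0.80 with fludarabine and −0.60 with idelalisib in MEC1. Since these genes were picked for their likeness to the members, such falls follow from the choice and are not a separate result.

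Other measures moved with the same treatments. In MEC1 the 12 proliferation genes summed to 4683 to 4880.4 CPM with DMSO, 4498 to 4914 with fludarabine, 2654 to 3011 with ibrutinib and 2420.1 to 2534 with idelalisib. In JVM2 the sums were 1361 to 1393, 697 to 755, 1131 to 1169 and 555 to 609.5 in that order, and in EHEB they were 1037 to 1156, 1249.8 to 1314, 932 to 1017 and 491 to 526. With fludarabine in EHEB the sum lay above DMSO, yet 8 of the 12 genes were called lower and 1 higher (median −0.29), where 19.2% and 18.4% of all genes were. The higher gene was PCNA, named after its value was seen, at 1.76, with 154, 146 and 146 CPM with DMSO and 495, 504 and 507 with fludarabine. With idelalisib in EHEB, where 8 members fell, all 12 of these genes were called lower (18.2% of all genes), among them TOP2A (−1.98), CDK1 (−2.22) and CCNA2 (−2.28). With fludarabine in MEC1, where 7 members fell, 3 were lower and 1 higher (22.7% and 21.2% of all genes). In JVM2 with ibrutinib 5 were lower and 5 higher (15.0% and 14.5% of all genes). Of the 13 mitochondrially encoded protein genes, 9 to 13 were called higher in each comparison (8.50% to 27.6% of all genes) and none lower. They made up 0.387% to 0.595% of the counts with DMSO and 0.894% to 0.941% with idelalisib in MEC1, and 1.25% to 1.64% and 1.43% to 2.02% in EHEB. The 7 B-cell markers moved too: with fludarabine 5 were lower and 1 higher in MEC1 (22.7% and 21.2% of all genes), 6 lower in JVM2 (23.3%) and 7 lower in EHEB (19.2%). In JVM2 their sum was 1284 to 1308 CPM with DMSO and 672 to 733 with fludarabine, and in EHEB it was 1773 to 1843 and 951 to 1065. With ibrutinib 7 were called higher in MEC1, 4 in JVM2 and 2 in EHEB, with idelalisib 5, 3 and 2, and with neither was any called lower. The T-cell, NK and myeloid markers that passed the filter (2, 1 and 1) were called higher with fludarabine in MEC1 (21.2% of all genes). There the lists summed to 3.19 to 3.77, 4.62 to 6.55 and 4.43 to 5.94 CPM. With DMSO the sums were 0.122 to 0.395, 2.06 to 2.84 and 0.441 to 0.924 CPM. COL1A1 was higher in 7 comparisons and lower in 1. The part of these measures in the changes of the members was not tested, and in bulk RNA fewer transcripts per cell and fewer cells of a kind cannot be told apart.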

How the data were processed

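The RNA of 36 libraries was measured after ribosomal RNA depletion. Per the labels and the study's methods, the authors trimmed the reads with Trimmomatic, aligned them to hg38 with HISAT2 2.1 and deposited estimated counts per gene from StringTie 1.3.4, as whole numbers. The release of the gene annotation is not given in the sources used here, and strand handling is not either. The authors' own tests used edgeR 3.22.5. Reads were assigned by estimation, so a gene with shared or overlapping exons is less certain. One entry without a symbol, 0.00384% of all counts, was left out.

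From these counts, edgeR 4.0.16 (R 4.3.3) was run here on the 12 libraries of each line, with TMM scaling and filterByExpr (minimum count 10, total 15). Each drug was tested against DMSO, and fludarabine against the mean of the kinase inhibitors, by the quasi-likelihood F-test. Adjusted p values are Benjamini-Hochberg values over all genes tested (17516, 17508 and 17748 for MEC1, JVM2 and EHEB), and a gene was called at a value below 0.05. All p values in the text come from this test unless another is named. A fit of the 36 libraries gave the differences among lines and the levels with DMSO, over 20531 genes. RPKM was computed here from TMM-scaled counts and the union of annotated exons (GENCODE). Promoter windows came from RefSeq (GRCh38.p14), and 2 members, ADSL and IMPDH2, have no window shown.

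Alternatives were DESeq2 1.42.0, limma-voom (limma 3.58.1), scaling by library size, no filter, a mean CPM of 5 or more, the 6 libraries of a comparison alone, the joint fit, and each library left out. Low values were in excess at steps of about 8/3, so counts divided by 8/3 were added as an alternative, chosen after seeing the data. The scripts were tested on simulated data. The total count of a library sets the counting error, but not the estimation error of the counts.

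The members and gene lists were chosen with earlier results of these data known. Named genes were all members, MYC, ATF4, every gene of PRPP supply, the AMP branch and the later pyrimidine steps, up to 3 genes of each other list (those called most often), and the 5 genes with the most similar pattern over the 12 groups.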

Additional observations from a re-analysis of the deposited data

Results flagged for a closer look

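The size of a drug's effect differed among the lines for 22 of the 30 member and drug pairs, by the interaction test of the joint fit (edgeR quasi-likelihood F-test, 3 libraries per group). Of all tested genes, 37.1% differed with fludarabine, 32.4% with ibrutinib and 42.7% with idelalisib. With fludarabine the members that differed were PPAT (adjusted p = 2.76e-04), GART (adjusted p = 0.0156), PAICS (adjusted p = 0.00762), ADSL (adjusted p = 7.40e-05), IMPDH1 (adjusted p = 7.20e-06), IMPDH2 (adjusted p = 3.72e-09) and GMPS (adjusted p = 0.00978).

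With ibrutinib they were GART (adjusted p = 0.0200), PFAS (adjusted p = 3.50e-04), ADSL (adjusted p = 0.0343), IMPDH1 (adjusted p = 4.92e-06), IMPDH2 (adjusted p = 4.37e-05), GMPS (adjusted p = 0.00660) and CAD (adjusted p = 1.31e-11). The log2 changes of CAD were −0.70 in MEC1, 0.69 in JVM2 and 0.40 in EHEB.

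With idelalisib they were PPAT (adjusted p = 0.0218), GART (adjusted p = 9.79e-04), PFAS (adjusted p = 3.01e-06), ADSL (adjusted p = 1.24e-06), ATIC (adjusted p = 0.0316), IMPDH1 (adjusted p = 9.92e-07), IMPDH2 (adjusted p = 4.55e-08) and CAD (adjusted p = 3.03e-13). Some of these calls were lost when a library was left out: GART with fludarabine without JVM2_86, GMPS with fludarabine without EHEB_135, EHEB_142 or EHEB_144, GART with ibrutinib without EHEB_133, ADSL with ibrutinib without JVM2_86, MEC1_38 or MEC1_186, and ATIC with idelalisib without EHEB_133, JVM2_85 or JVM2_86. PPAT with idelalisib was lost in most such fits. Without a filter, GMPS with fludarabine (adjusted p = 0.114, edgeR) and ibrutinib (0.0750), and PPAT (0.0912) and ATIC (0.0539) with idelalisib were not called. Each line had its own exposure time, and these cannot be told apart. Groups of 3 libraries were not searched for outlying samples.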

How the results depend on the processing

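No paired analysis was possible because the groups share no library number. Over the planned and added alternatives, 1050 values of single members kept direction and side of the threshold, 39 lost a call, 17 gained one and 4 reversed. The reversals came with library size scaling: ATIC with fludarabine against DMSO in MEC1 became 0.018, and fludarabine against the kinase inhibitors in MEC1 became 0.058 for ATIC, 0.24 for GMPS and 0.071 for IMPDH1. Leaving out the TMM factors of these libraries raised the fludarabine effects against DMSO by 0.25 in MEC1, 0.20 in JVM2 and 0.11 in EHEB. Which scaling is nearer the truth was not tested.

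Of the counts of called members under the alternatives, 189 stayed within 1.5 times of the reported count and 15 did not. With library size scaling, members higher with fludarabine against DMSO became 1 in MEC1, 3 in JVM2 and 4 in EHEB, members lower with ibrutinib in EHEB became 0, and for fludarabine against the kinase inhibitors the higher members became 3 in MEC1 and 2 in JVM2 and the lower members 2 in MEC1. The splits of higher and lower became 5 and 2 for ibrutinib and 3 and 4 for idelalisib in JVM2. Without a filter, members in EHEB became 0 higher with fludarabine, and 1 higher and 0 lower with ibrutinib. The joint fit gave 1 higher with fludarabine in EHEB, and for fludarabine against the kinase inhibitors 1 lower in EHEB and 3 lower in MEC1. The stricter filter gave 2 higher with fludarabine in JVM2, and the fit of 6 libraries 0 lower with ibrutinib in EHEB. The cause was not tested.

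With a library left out, counts that moved by over 1.5 times ranged, in EHEB, from 0 to 2 higher with fludarabine, 0 to 1 lower for fludarabine against the kinase inhibitors, 1 to 2 higher and 0 to 2 lower with ibrutinib. In JVM2 they ranged from 0 to 1 higher with fludarabine, against DMSO and against the kinase inhibitors, and in MEC1 from 1 to 3 higher with ibrutinib. These fits leave 1 group with 2 libraries.

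Scatter of PAICS in MEC1 and EHEB and of MYC in MEC1 and JVM2, 3 libraries per group, the shared DMSO libraries and the separate run of the kinase inhibitor libraries limit what these comparisons can show. Log2 changes of about 0.2 stood near the threshold and were often lost.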
